A study of Mus musculus with 27 samples.

Results

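The 38 Hox genes described here, of the HoxA, HoxB, HoxC and HoxD clusters, were followed in NMuMG cells during the response to TGF-β. They were chosen by symbol alone, as entries of the deposited expression tables named Hoxa to Hoxd with a number, and made up 38 of 24892 symbols (10 HoxA, 10 HoxB, 9 HoxC and 9 HoxD genes). NMuMG is a normal mouse mammary epithelial cell line, and TGF-β is a growth factor that drives it through an epithelial-to-mesenchymal transition (EMT). The study asked how lamin B1, a protein of the nuclear lamina that is also found inside the nucleus, occupies open chromatin during that transition. RNA was sequenced from parental NMuMG cells that were untreated or treated for 8 or 24 h (2 libraries per time, 6 in all). It was also sequenced from puromycin-selected NMuMG cells infected to express either an irrelevant shRNA (control cells) or an shRNA against lamin B1 (KD cells), each untreated or treated for 8 or 24 h (2 libraries per group, 12 in all). Lamin B1 ChIP-seq on a euchromatin-enriched fraction and ATAC-seq, which maps DNA open to a transposase, gave 1 peak list each for untreated, 8 h and 24 h parental cells. The 3 Hi-C maps of the series were not analysed here.

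Hox genes encode homeodomain transcription factors that give cells their position along the body axis. In mammals they lie in 4 clusters on different chromosomes, in the order in which they are switched on in the embryo. Many Hox proteins bind DNA with partners of the PBC or MEIS families. Silent clusters are typically covered by Polycomb group proteins, Trithorax group proteins and H3K27 demethylases counteract them, and retinoic acid is a known inducer of the members at the 3′ end of a cluster. Several Hox genes also act in mammary gland development.

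The sequences of 5 Hox sites are shown because the peaks described below lie on them. Each is given 5′ to 3′ from mouse build mm9 (NCBIM37), in lower case with every CG dinucleotide in capitals. The first is the start of Hoxa7, the one Hox gene described here that was both expressed enough to test and marked by a peak within 500 bp of the annotated start, from 250 bases upstream to 30 bases into the transcript. The next sites are the central 300 bp of the highest-scoring lamin B1 peak of each cluster (moved so that the HoxD site takes in no more than 30 transcribed bases).
Hoxa7 start, chr6:52171824-52172103, minus strand: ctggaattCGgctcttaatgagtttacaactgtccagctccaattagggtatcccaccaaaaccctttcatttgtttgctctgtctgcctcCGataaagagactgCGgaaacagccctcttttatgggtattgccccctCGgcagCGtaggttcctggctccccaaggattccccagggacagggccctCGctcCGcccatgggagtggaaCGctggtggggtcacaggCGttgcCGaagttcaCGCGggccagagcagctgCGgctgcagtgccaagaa
HoxA site at 8 h, between Hoxa11 and Hoxa13 and in no exon, chr6:52203066-52203365, plus strand: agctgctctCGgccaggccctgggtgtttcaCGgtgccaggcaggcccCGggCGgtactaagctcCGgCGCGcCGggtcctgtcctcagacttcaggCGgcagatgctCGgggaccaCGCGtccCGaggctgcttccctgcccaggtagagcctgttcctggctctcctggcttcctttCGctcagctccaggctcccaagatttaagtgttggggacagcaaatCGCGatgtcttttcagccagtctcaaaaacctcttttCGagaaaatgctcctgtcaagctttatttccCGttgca
HoxB site at 24 h, in coding sequence of Hoxb5, chr11:96165114-96165413, plus strand: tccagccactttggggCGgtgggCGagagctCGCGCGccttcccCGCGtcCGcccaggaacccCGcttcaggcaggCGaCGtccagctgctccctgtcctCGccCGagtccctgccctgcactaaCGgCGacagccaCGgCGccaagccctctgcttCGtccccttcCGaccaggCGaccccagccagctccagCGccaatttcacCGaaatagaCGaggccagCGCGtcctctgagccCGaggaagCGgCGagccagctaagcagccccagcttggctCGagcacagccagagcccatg
HoxC site at 24 h, in coding sequence of Hoxc13, chr15:102751977-102752276, plus strand: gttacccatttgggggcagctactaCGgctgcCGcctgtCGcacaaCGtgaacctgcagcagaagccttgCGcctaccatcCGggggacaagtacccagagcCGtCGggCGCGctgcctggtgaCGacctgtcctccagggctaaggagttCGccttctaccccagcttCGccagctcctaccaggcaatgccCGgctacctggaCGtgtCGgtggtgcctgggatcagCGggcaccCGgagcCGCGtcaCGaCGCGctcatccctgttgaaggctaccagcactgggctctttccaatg
HoxD site at 8 h, just before Hoxd9, chr2:74535467-74535766, plus strand: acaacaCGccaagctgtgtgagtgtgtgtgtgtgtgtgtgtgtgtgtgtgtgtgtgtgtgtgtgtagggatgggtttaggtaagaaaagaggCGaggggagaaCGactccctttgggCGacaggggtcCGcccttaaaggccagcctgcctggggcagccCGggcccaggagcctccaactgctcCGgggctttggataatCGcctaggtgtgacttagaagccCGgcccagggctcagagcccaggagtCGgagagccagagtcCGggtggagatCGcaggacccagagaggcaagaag

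These sites held between 12 and 29 CG dinucleotides. The Hoxa7 start had 13 of them at 57.1% GC, and the Hoxb5 site was the richest with 29 at 69.0% GC. Among the 38 Hox promoters, 18 met the CpG-rich rule used here (at least 50% GC and an observed-to-expected CG ratio of at least 0.6 within 500 bp of the start), as did 9558 of 21137 gene promoters in the annotation.

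Expression was given by the authors as FPKM, a fragment count divided by transcript length and library size, so that levels of different genes can be compared. The sources used here do not state the number of reads per library, but low values moved in whole steps, from which depth relative to the first library of each table was 92.8 to 116% among parental and 79.0 to 112% among shRNA libraries. Replicate libraries correlated across genes at r = 0.960 to 0.990. Lmnb1, which encodes lamin B1, was read at 29.2 and 36.5 FPKM in untreated control cells and at 9.01 and 9.27 in untreated KD cells, at 32.8 and 32.1 against 7.79 and 8.14 at 8 h, and at 18.4 and 17.9 against 4.37 and 7.52 at 24 h, so the groups did not overlap at any time (log2 differences −1.73, −1.9 and −1.5, adjusted p = 0.000573, 0.000189 and 0.000901). Lmnb1 also fell within 24 h of TGF-β in parental cells, from 36.9 and 36.3 to 19.5 and 17.6 FPKM. The 6 epithelial markers checked (Epcam, Cdh1, Krt8, Krt18, Krt19 and Cldn4) summed to between 4326 and 7009 FPKM in the 18 libraries. Krt8 and Krt18 made up most of this sum, while Epcam was at most 3.15 and Cldn4 at most 9.78 FPKM. At 24 h Cdh1 and Krt19 were lower and Cldn4 was higher than untreated in parental, control and KD cells. The 6 fibroblast markers summed to 14.6 or less, the 3 leukocyte markers to 1.94 or less and the 3 endothelial markers to 1.51 or less. Col1a2 (1.43 to 2.22 FPKM), Dcn (1.13 to 1.52), Lum (0.190 to 0.395), Pecam1 (0.348 to 0.483) and Kdr (0.191 to 0.342) were read in every parental library. These genes stayed under 0.1 FPKM in every infected library. Col1a1, Pdgfra, Pdgfrb and Cdh5 passed 0.1 FPKM in both parental and infected cells. Of the leukocyte markers, Ptprc and Cd3e stayed under 0.1 FPKM in every library. The other, Cd68, was read at 1.40 to 1.93 FPKM in parental and 0.972 to 1.77 in infected cells, which is most of the leukocyte sum. The part of such other cell types in the Hox values was not tested.

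Hox expression was low and came mostly from the HoxA cluster. The highest level of any Hox gene in any library was 1.21 FPKM among parental cells (Hoxa3, 24 h) and 1.35 FPKM among shRNA-infected cells (Hoxa7, an untreated KD library). In both tables the HoxA genes were the most expressed, the highest HoxB level was 0.348 FPKM in parental and 0.352 in infected cells, HoxC genes did not pass 0.0491 FPKM and HoxD genes did not pass 0.0123 FPKM. Of the 38 genes, 10 were listed at 0 in all 18 libraries (Hoxb1, Hoxb2, Hoxc10, Hoxc11, Hoxd1, Hoxd3, Hoxd9, Hoxd10, Hoxd12 and Hoxd13), and 27 in parental and 22 in infected cells stayed under 0.1 FPKM throughout. Only 9 Hox genes in parental and 16 in infected cells were read above 0 in every library. Since these were bulk libraries, a low level in all cells and a higher level in few cells cannot be told apart.

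**Figure D1:**
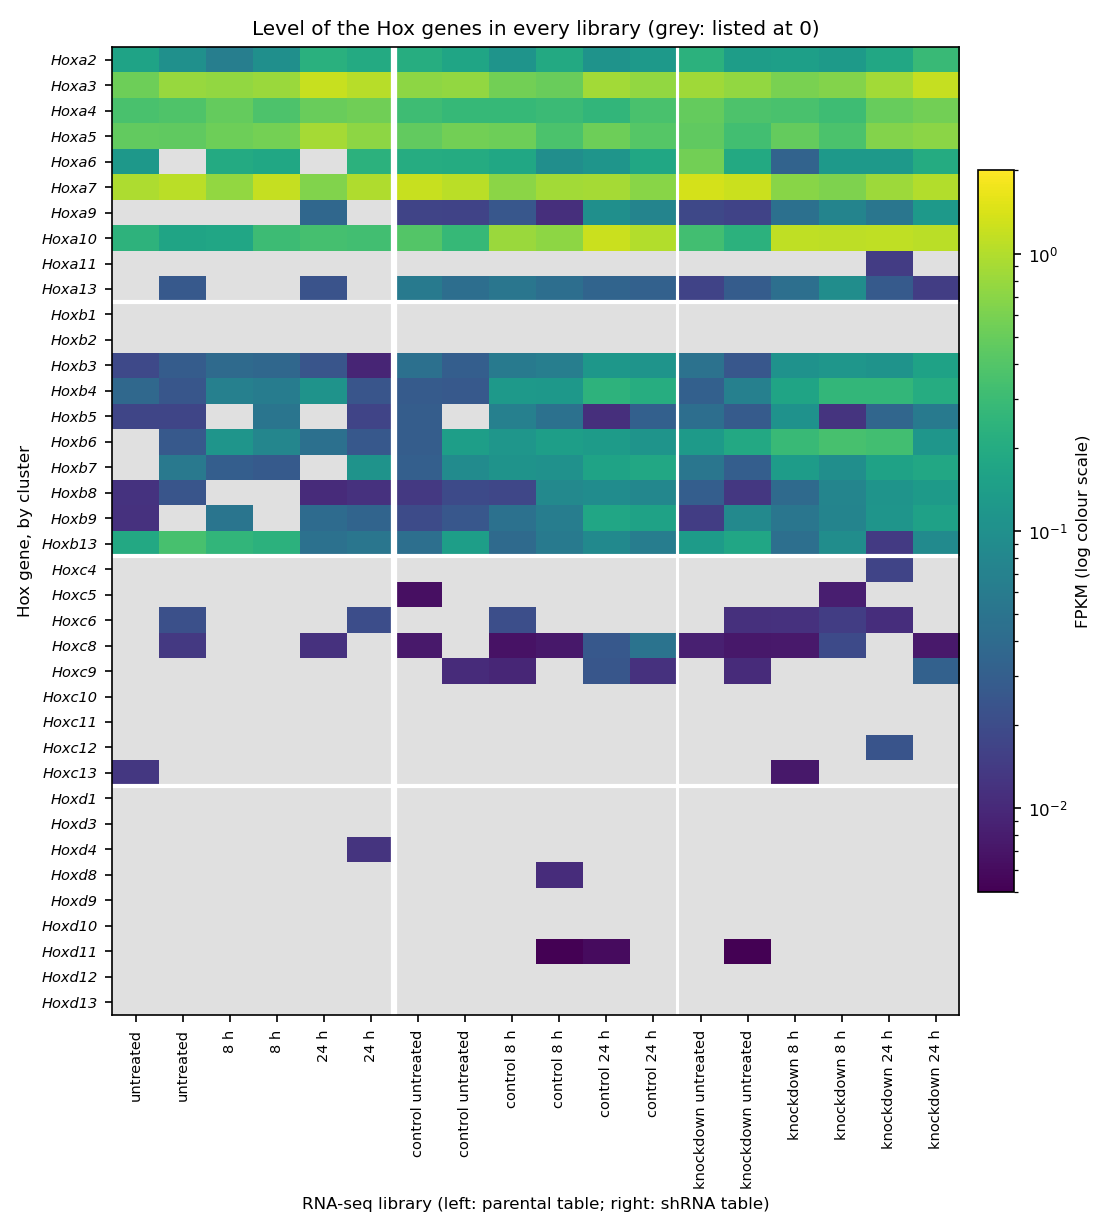
Level of each of the 38 Hox genes (rows, by cluster) in each of the 18 RNA-seq libraries (columns, parental on the left and shRNA on the right), in FPKM on a logarithmic colour scale with grey for genes listed at 0. Colour is concentrated in the HoxA rows, whose highest values are 1.21 FPKM in parental and 1.35 FPKM in infected cells, and the HoxC and HoxD rows are nearly empty.

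Summed over the 10 HoxA genes, parental libraries gave 2.84 and 3.01 FPKM untreated, 2.95 and 3.51 at 8 h, and 3.87 and 4.05 at 24 h. Both 24 h libraries lay above all 4 earlier ones. In control cells the HoxA sum was 3.61 and 3.37 untreated, 3.26 and 3.12 at 8 h, and 4.15 and 3.65 at 24 h, and in KD cells it was 4.31 and 3.30, 3.52 and 3.50, and 4.38 and 5.16 FPKM. The 24 h libraries were the highest of their series there too, and the control and KD libraries did not overlap at 8 or 24 h but did before treatment. The HoxB sum was 0.286 and 0.525, 0.563 and 0.492, and 0.276 and 0.284 FPKM in parental cells at 0, 8 and 24 h. In control cells it was 0.240 and 0.476, 0.587 and 0.685, and 1.02 and 0.947 FPKM, and in KD cells 0.484 and 0.604, 0.945 and 1.08, and 1.13 and 1.09 FPKM. Thus every treated infected library exceeded every untreated library of its own shRNA in HoxB sum, while parental libraries at 24 h lay at the level of the lower untreated one. The untreated parental sums came in large part from Hoxb13. In parental cells it was read at 0.188 and 0.348 FPKM untreated, 0.260 and 0.236 at 8 h, and 0.0464 and 0.0522 at 24 h. With Hoxb13 left out, the treated parental libraries also lay above the untreated ones. The parental and shRNA tables were normalized separately, so levels set side by side across them were not tested.

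A test was possible for few members. A gene was tested with limma on log2(FPKM + 1) where it reached 1 FPKM in at least 2 libraries of its table, and of the 38 only Hoxa3 and Hoxa7 did so in parental cells and Hoxa7 and Hoxa10 in infected cells. Hoxa3 passed in parental cells only through its 24 h libraries, Hoxa10 passed in infected cells only through treated libraries, and Hoxa7 passed there mainly through untreated ones, so counts of tested members that differed carry no weight on their own and the floor favoured the direction of these contrasts with untreated cells. For that reason the same contrasts from the fit with no floor, which took in every gene above 0 in any library, are given beside them. Fold changes on this scale understate the change of genes near or under 1 FPKM. With 2 libraries per group, p-values rest on the spread between libraries of the same group. That spread was pooled over all groups of a table and drawn toward the trend over all genes.

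Hoxa10, a posterior HoxA gene (chr6:52181196-52190853, minus strand) best known from uterine development, was the tested member that rose in infected cells. In control cells it was read at 0.401 and 0.274 FPKM untreated, 0.817 and 0.731 at 8 h, and 1.24 and 1.01 at 24 h. In KD cells it was read at 0.330 and 0.236, 1.12 and 1.10, and 1.12 and 1.07 FPKM. KD cells at 8 h already stood at the level that both kinds of cells reached at 24 h, and above both control libraries at 8 h. Hoxa10 rose by 0.41 ± 0.08 at 8 h (adjusted p = 0.00152) and 0.67 ± 0.08 at 24 h (adjusted p = 5.58e-05) in control cells, and by 0.72 ± 0.08 (adjusted p = 4.12e-05) and 0.71 ± 0.08 (adjusted p = 3.54e-05) in KD cells. With no floor the adjusted p was 0.00173 and 8.6e-05 in control cells and 7.17e-05 and 5.68e-05 in KD cells. At 8 h the level was higher in KD than in control cells by 0.25 ± 0.08 (adjusted p = 0.0333), a call that was lost when any of the 4 libraries at 8 h was left out (adjusted p 0.0793 to 0.165) and under a pseudocount of 0.1 (adjusted p = 0.0823) or quantile normalization (adjusted p = 0.0606). The difference between the responses at 8 h was 0.31 ± 0.11 and did not pass (unadjusted p = 0.0201, adjusted p = 0.151), and at 24 h it was 0.04 ± 0.11 (adjusted p = 0.831). KD and control cells differed by −0.06 ± 0.08 untreated and −0.01 ± 0.08 at 24 h (adjusted p = 0.641 and 0.908). In parental cells Hoxa10 did not reach the floor for testing and was read at 0.242 and 0.166 FPKM untreated, 0.172 and 0.305 at 8 h, and 0.345 and 0.325 at 24 h. Both parental 24 h libraries thus lay above all 4 earlier parental ones, but under every treated infected library. On the log2(FPKM + 0.1) scale described below, the parental 24 h difference was 0.53 ± 0.25 and was not called (adjusted p = 0.108 by limma).

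Hoxa7 (chr6:52164490-52171853, minus strand), a gene of axial skeleton patterning, was the tested member that fell in infected cells. In control cells it was read at 1.22 and 1.08 FPKM untreated, 0.707 and 0.873 at 8 h, and 0.897 and 0.690 at 24 h. In KD cells it was read at 1.35 and 1.24, 0.692 and 0.627, and 0.831 and 1.01 FPKM. All 4 treated libraries lay under both untreated ones in each kind of cells. Hoxa7 fell by 0.27 ± 0.08 at 8 h (adjusted p = 0.0212) and by 0.26 ± 0.08 at 24 h (adjusted p = 0.0196) in control cells, and by 0.47 ± 0.08 (adjusted p = 0.00101) and 0.26 ± 0.08 (adjusted p = 0.0206) in KD cells. With no floor Hoxa7 fell by the same amounts (adjusted p 0.00158 to 0.0260). Across all genes tested in infected cells the median difference was itself −0.14 and −0.13 at 8 and 24 h in control cells and −0.13 and −0.10 in KD cells. Relative to these medians Hoxa7 was lower by −0.12, −0.13, −0.34 and −0.16, and Hoxa10 was higher by 0.55, 0.80, 0.85 and 0.81 in the same order. Under quantile normalization, which removes such a shift, the Hoxa7 call was lost at 8 h in control cells (−0.15, adjusted p = 0.134) and at 24 h in KD cells (−0.19, adjusted p = 0.0564). It was also lost at 8 h in control cells without the first untreated or the first 8 h control library (adjusted p = 0.0960 and 0.137), at 24 h without the first untreated or the second 24 h control library (0.0896 and 0.146), and at 24 h in KD cells without the first untreated or first 24 h KD library (0.105 and 0.102). In parental cells Hoxa7 was read at 0.951 and 1.08, 0.749 and 1.18, and 0.644 and 0.975 FPKM, with overlap between times and differences of −0.05 ± 0.13 and −0.16 ± 0.13 (adjusted p = 0.786 and 0.307).

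Hoxa3 (annotated at chr6:52113358-52163338, minus strand), a gene of pharyngeal arch development, was tested in parental cells alone. It was read there at 0.532 and 0.796 FPKM untreated, 0.750 and 0.805 at 8 h, and 1.21 and 1.05 at 24 h. It rose by 0.36 ± 0.10 at 24 h (adjusted p = 0.0128), with both 24 h libraries above the rest, and by 0.10 ± 0.10 at 8 h (adjusted p = 0.413). With no floor the 24 h adjusted p was 0.0248. The 24 h call was lost without the first untreated or the first 24 h library (adjusted p = 0.0768 and 0.0784). In control cells the course differed, with 0.725 and 0.753 FPKM untreated, 0.559 and 0.503 at 8 h, and 0.872 and 0.766 at 24 h. KD cells gave 0.851 and 0.750, 0.593 and 0.662, and 0.879 and 1.19 FPKM. In infected cells the 8 h libraries were therefore the lowest of each series. On the log2(FPKM + 0.1) scale described below, the drop at 8 h in control cells was called (−0.41, adjusted p = 0.0402). The annotated Hoxa3 transcript unit spans Hoxa4, Hoxa5 and Hoxa6, Hoxb7 overlaps Hoxb8, and noncoding transcripts lie across several members. The study shows strand-specific RNA-seq profiles, but how reads were divided among overlapping genes for the FPKM values, and whether strand was used in that step, is not given in the sources used here.

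Altogether, 0 of 2 tested Hox genes were called at 8 h and 1 of 2 at 24 h in parental cells, where 54.5% and 70.5% of all 11309 genes tested were called. By limma's unadjusted p under 0.05, too, 0 of 2 stood out at 8 h in parental cells. In control cells 2 of 2 were called at 8 h and at 24 h (background 64.3% and 70.7% of 11450 genes), and in KD cells likewise (67.8% and 71.9%), in each case Hoxa10 higher and Hoxa7 lower. Of all genes, 22.4% were higher and 32.1% lower at 8 h and 33.4% and 37.1% at 24 h in parental cells, 19.4% and 44.9%, then 25.5% and 45.1% in control cells, and 23.0% and 44.8%, then 28.6% and 43.3% in KD cells. Quantile normalization moved these to 26.9% and 31.7%, then 34.1% and 34.1% in control cells and to 29.97% and 35.2%, then 36.0% and 35.8% in KD cells, and in parental cells to 26.6% and 26.9%, then 36.1% and 34.4%. Between KD and control cells 0 of 2 were called untreated, 1 at 8 h and 0 at 24 h, against 19.7%, 35.8% and 28.3% of all genes. No tested Hox gene was called for a difference in response (background 4.06% and 4.72%). By unadjusted p under 0.05, limma counted 0 members between KD and control cells untreated, 0 at 24 h, 1 for the 8 h response (Hoxa10) and 0 for the 24 h response. The TGF-β contrasts of KD and control cells and the contrasts between them share libraries, so their values are given side by side and not as independent results.

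**Figure D2:**
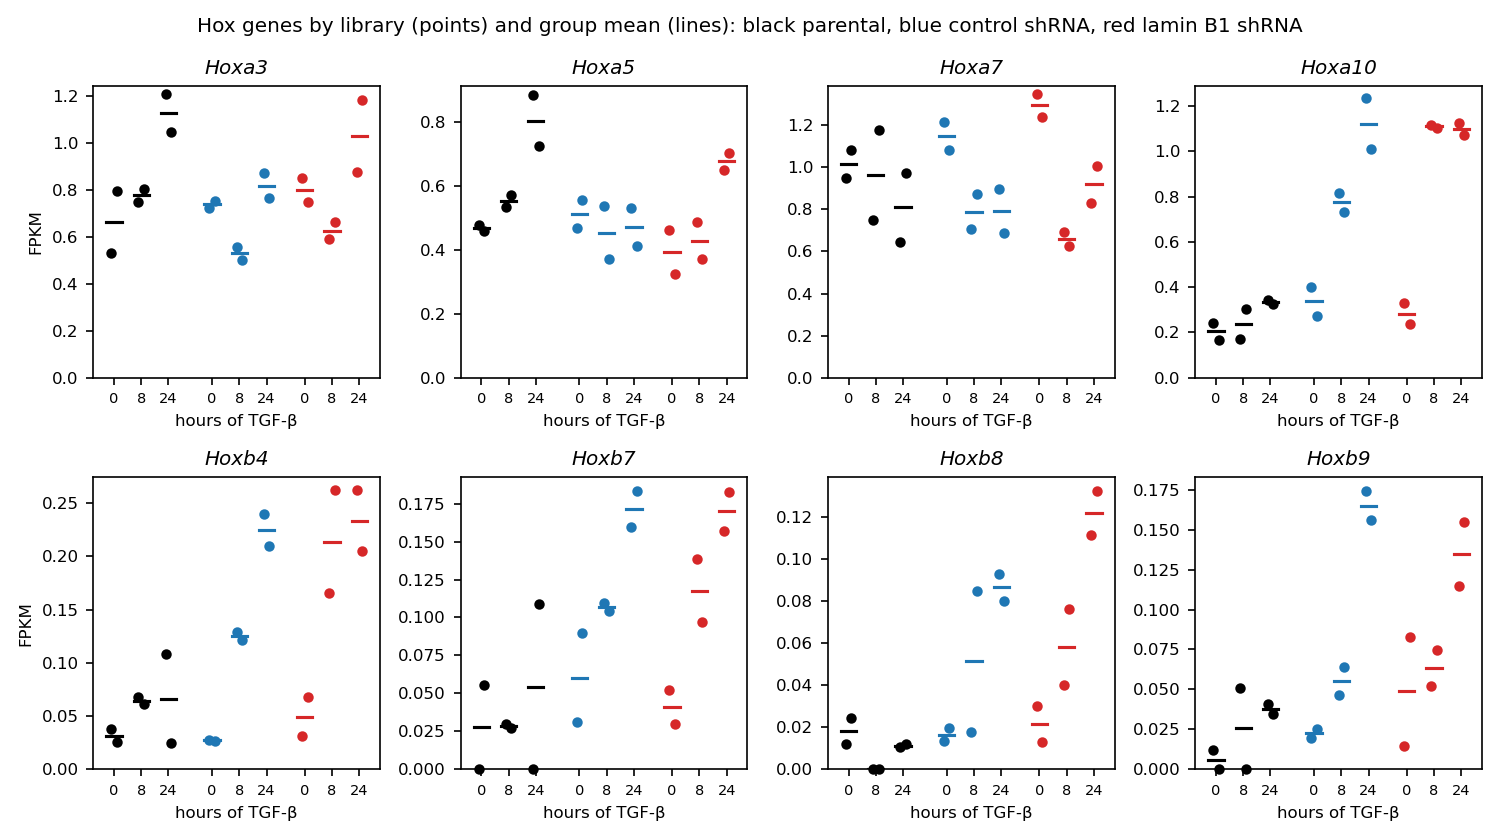
FPKM of selected Hox genes by hours of TGF-β, with a point per library and lines through group means (black parental, blue control shRNA, red lamin B1 shRNA; 2 libraries per group, axes from 0). Hoxa10 climbs from 0.401 FPKM or less to 1.01 FPKM or more in both kinds of infected cells at 24 h but reaches no more than 0.345 FPKM in parental cells, and Hoxa7 falls in infected cells.

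To reach weaker members, the fit was repeated on log2(FPKM + 0.1) with genes at 0.1 FPKM or more in at least 2 libraries, a setting chosen after the levels had been seen. It took in 8 Hox genes in parental and 14 in infected cells, several of them only through libraries in which they were high, so that the floor favoured their direction. Among the added members were central HoxB genes, which act in neural tube, axial and blood development. Hoxb4 was read at 0.0276 and 0.0266 FPKM in untreated control cells, 0.129 and 0.121 at 8 h, and 0.240 and 0.210 at 24 h. In KD cells it was read at 0.0312 and 0.0675, 0.166 and 0.262, and 0.262 and 0.205 FPKM. Every treated library of infected cells was above every untreated one. The smallest whole fragment numbers that fit these values were 4 and 4, 21 and 18, and 30 and 28 in control cells and 4 and 10, 24 and 30, and 41 and 30 in KD cells. On this scale the 24 h difference of Hoxb4 was 1.35 ± 0.20 in control and 1.16 in KD cells. With no floor, on log2(FPKM + 1), Hoxb4 rose by 0.25 ± 0.04 (adjusted p = 0.000865) and 0.23 (adjusted p = 0.00134). In parental cells it was at 0.0376 and 0.0250, 0.0675 and 0.0614, and 0.108 and 0.0244 FPKM, with the 24 h libraries on either side of the rest.

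Hoxb9 moved from 0.0196 and 0.0252 FPKM in untreated control cells to 0.0466 and 0.0637 at 8 h and 0.174 and 0.156 at 24 h. In KD cells it was at 0.0148 and 0.0831, 0.0523 and 0.0745, and 0.115 and 0.155 FPKM. Both 24 h libraries exceeded all earlier ones in each kind of cells, on at most 24 fragments per library. Hoxb7 held the same order, with 24 h libraries at 0.157 to 0.183 FPKM, 8 h libraries at 0.0971 to 0.138 and untreated ones at 0.0299 to 0.0896. Hoxb3 was at 0.109 to 0.157 FPKM at 24 h against 0.0257 to 0.0474 untreated, but its 8 h KD libraries (0.105 and 0.117) overlapped the 24 h KD ones. Hoxb8 was at 0.0799 to 0.132 FPKM at 24 h against 0.0131 to 0.0302 untreated, but in control cells 1 library at 8 h (0.0847) lay between both at 24 h. At 24 h the differences of Hoxb3, Hoxb4, Hoxb7, Hoxb8 and Hoxb9 from untreated cells were 0.64 to 1.35 in control and 0.69 to 1.16 in KD cells on this scale. All 5 reached 0.1 FPKM in treated libraries alone, so no test under that floor is given for them. With no floor, on log2(FPKM + 1), they were called higher at 24 h in control cells (0.10 to 0.25, adjusted p at most 0.0272) and in KD cells (0.11 to 0.23, adjusted p at most 0.0146). In that direction 8 of 27 Hox genes were called in control and 8 of 27 in KD cells, beside 19.5% and 21.8% of all genes. Hoxb5 was not called in that fit at 24 h in either kind of cells. Hoxb6 (0.05 and 0.07, adjusted p = 0.674 and 0.515) and Hoxb13 (−0.02 and −0.13, adjusted p = 0.760 and 0.0529) were not called in that fit. Under this setting 7 of 14 Hox genes were called in control and 9 of 14 in KD cells at 24 h, where 65.6% and 67.3% of all genes were called, and 4 and 6 of 14 at 8 h, where 58.8% and 62.6% were called. These shares were near or under the background, and are counts over members that passed the floor. The 24 h counts take in the 5 genes above and, in KD cells, Hoxb13, which reached 0.1 FPKM in untreated infected libraries alone. They therefore carry no weight on their own.

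Hoxb13, the most posterior HoxB gene, took the opposite course in parental cells. It was read at 0.188 and 0.348 FPKM untreated, 0.260 and 0.236 at 8 h, and 0.0464 and 0.0522 at 24 h, or 7 and 13, 9 and 9, and 2 and 2 fragments. On the log2(FPKM + 0.1) scale it differed by −1.27 ± 0.26 at 24 h. It reached 0.1 FPKM in untreated and 8 h parental libraries alone, so no test under that floor is given for it. With no floor, on log2(FPKM + 1), the 24 h difference was −0.27 (adjusted p = 0.0183 by limma), and both 24 h libraries lay well under the others. In infected cells it was already low, at 0.0445 and 0.143 FPKM in untreated control and 0.133 and 0.172 in untreated KD cells, and at most 0.0933 after treatment. Hoxa5, which is needed for lung and mammary development, rose in parental cells at 24 h (0.479 and 0.460 FPKM untreated, 0.886 and 0.725 at 24 h, difference 0.66 ± 0.15, adjusted p = 0.00747). In KD cells it went from 0.463 and 0.324 to 0.651 and 0.705 FPKM (adjusted p = 0.0191) and in control cells from 0.469 and 0.557 to 0.531 and 0.413 (adjusted p = 0.686). The difference between the latter responses did not pass (adjusted p = 0.178). In parental cells 3 of 8 members were called at 24 h under this setting (Hoxa3 and Hoxa5 higher, Hoxb13 lower) and 0 of 8 at 8 h, with none under an unadjusted p of 0.05, against 63.4% and 46.5% of all genes. The 24 h count takes in Hoxb13, which passed the floor only through untreated and 8 h libraries, so it carries no weight on its own. Also called under this setting was Hoxa6, lower at 8 h in KD cells (0.560 and 0.192 FPKM untreated, 0.0333 and 0.126 at 8 h, adjusted p = 0.0161). Hoxb13 differed by −0.79 at 24 h in KD cells on this scale. Among infected cells it reached 0.1 FPKM in untreated libraries alone, so no test under that floor is given for it there. The fit with no floor did not call it in that contrast.

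Between KD and control cells the same setting called 1 Hox gene. Hoxa4 was read at 0.257 and 0.362 FPKM in control and 0.492 and 0.563 in KD cells at 24 h, without overlap, a difference of 0.63 ± 0.17 (adjusted p = 0.0297, 1 of 14 members against 23.5% of all genes). It was also higher in both KD libraries than in both control libraries untreated (0.488 and 0.373 against 0.310 and 0.275) and at 8 h (0.358 and 0.312 against 0.275 and 0.300), without passing the test. Limma called 0 of 14 members untreated and 0 at 8 h (15.8% and 29.9% of all genes), with 1 and 4 at an unadjusted p under 0.05. It called 0 for each response (2.44% and 3.34% of all genes), with 1 and 1 at an unadjusted p under 0.05 at 8 and 24 h.

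The genes that act with or on the Hox clusters were counted from lists, and their counts at 24 h are to be read against the 70.5%, 70.7% and 71.9% of all genes called in parental, control and KD cells. Of 8 Hox cofactor genes (of the Pbx, Meis and Pknox families, which encode DNA-binding partners of Hox proteins), 6 were tested, and in parental cells at 24 h 3 rose and 1 fell, with Meis3 at 0.52 and Pknox1 at −0.22 (4 of 6 called, against 70.5% of all genes). In control cells 1 rose and 2 fell, with Meis1 at 0.54 and Meis2 at −0.34, and in KD cells Meis1 (0.35) rose and none fell. The list median at 24 h was 0.19 in parental, 0.02 in control and 0.01 in KD cells, against medians over all genes of −0.02, −0.13 and −0.10. Of 30 Polycomb genes 29 were tested. At 24 h 8 rose and 9 fell in parental cells, and 4 rose and 16 fell in both control and KD cells, with list medians of −0.04, −0.21 and −0.24, so 17, 20 and 20 of 29 were called, which is near or under the share of all genes. Suz12 and Ezh2, core subunits of the complex that methylates H3K27, fell in parental cells (−0.73 and −0.51) and in KD cells (−1.17 and −0.99). Suz12 also fell in control cells (−0.97), where Ezh2 was not among the 2 largest falls and is not given. Jarid2, an accessory subunit, rose in parental, control and KD cells (0.49, 0.46 and 0.69). Between the lamin B1 and control shRNAs 4, 11 and 12 Polycomb genes were called at 0, 8 and 24 h, of which 3, 9 and 10 were lower in KD cells (of all genes 19.7%, 35.8% and 28.3% were called and 9.09%, 16.5% and 11.5% were lower), including Mtf2 at −0.67, −0.75 and −0.76. Of 10 Trithorax and H3K27 demethylase genes, 7, 7 and 6 were called at 24 h in parental, control and KD cells, with 5, 6 and 5 lower, again near or under the share of all genes. Kdm6b, an H3K27 demethylase, rose (0.90, 0.68 and 0.84), and Dpy30, a subunit of H3K4 methyltransferases, fell (−0.94, −1.16 and −1.16).

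Of 17 retinoic acid genes, 8 were tested in parental and 9 in infected cells. At 24 h 6 were called in parental (2 higher, 4 lower), 8 in control (2 higher, 6 lower) and 7 in KD cells (3 higher, 4 lower), against 70.5%, 70.7% and 71.9% of all genes. Aldh1a1, which makes retinoic acid from retinal, fell (−2.98, −4.26 and −3.45), as did Dhrs3, which reduces retinal (−0.67, −2.53 and −1.64). In KD cells Aldh1a1 was higher than in control cells by 0.87, 1.34 and 1.68 at 0, 8 and 24 h (adjusted p = 0.0467, 0.00468 and 0.0025). Rarg, a retinoic acid receptor, was the only gene of these pathway lists whose response was called different with knockdown (by 0.34 and 0.43 at 8 and 24 h, adjusted p = 0.0363 and 0.0150). Of the 6 Cdx and ParaHox genes, Cdx2, a homeodomain regulator of Hox genes, fell at 24 h in all 3 kinds of cells (−2.37, −1.72 and −2.15), as did Pdx1 in parental cells (−0.54), and the others were under the floor. As a check of treatment, Smad7 and Fn1, known TGF-β targets, were higher in every TGF-β contrast.

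Peaks were read over the 4 clusters, each extended by 2500 bp (103.5 kb for HoxA, from Hoxa2 to Hoxa13, 178.9 for HoxB, 120.7 for HoxC and 101.8 for HoxD). With 1 library per time there is no replicate check and no test, and a site with no peak means only that it is not in a list whose lowest score is 50. The lists differed in length (4645, 10484 and 7083 lamin B1 peaks and 9782, 10340 and 33811 ATAC peaks at 0, 8 and 24 h), which bears on every count below.

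Per Mb of sequence, lamin B1 peaks were denser over the combined span of the 4 Hox clusters than over the genome at all 3 times. The number of genes per Mb was not allowed for in this comparison. By gene, as counted below, the Hox share with a peak was under that of all genes before treatment (13.2% against 19.9%). It was above that of all genes at 8 h (55.3% against 38.9%) and 24 h (50% against 29.5%). This excess depended on the window and on the length of the lists. Within 500 bp of the start the Hox share was near that of all genes at 8 h (31.6% against 30.5%) and under it at 24 h (18.4% against 23.9%). With lists of equal length, as given below, it was under that of all genes at 8 h and above it at 24 h. Before treatment the clusters held 5 lamin B1 peaks, and they held 30 after 8 h and 19 after 24 h. That is 9.90, 59.4 and 37.6 peaks per Mb, against 1.75, 3.95 and 2.67 per Mb over the genome, and they covered 1.21%, 6.21% and 3.63% of the clusters. The 100 kb on either side of the 4 clusters held 2, 8 and 2 peaks in all. HoxA carried 3, 8 and 7 peaks, HoxB 0, 3 and 5, HoxC 2, 9 and 3, and HoxD 0, 10 and 4 at 0, 8 and 24 h. Thus HoxA, HoxC and HoxD held most at 8 h, while HoxB held most at 24 h. When overlapping peaks were merged into 40 regions, 19 were marked at 8 h alone, 8 at 24 h alone, 8 at 8 and 24 h, 2 before treatment and at 8 h, 2 before treatment and at 24 h, and 1 at every time. That last region lay at the 5′ end of Hoxc12.

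The scores of these peaks were ordinary for their lists, with medians at the percentile 36.1, 45.4 and 51.1 of all lamin B1 peaks of the same time. The highest were 185 over the Hoxc13 start at 24 h, 180 over the Hoxd9 start at 8 h (116 at 24 h), 164 between Hoxa11 and Hoxa13 at 8 h, and 93.8 in an exon of Hoxb5 at 24 h. An annotated transcript start lay inside 4 of 5, 15 of 30 and 9 of 19 peaks. Their mean GC content was 60.5%, 59.8% and 62.4%, against 61.0%, 61.6% and 64.3% for all lamin B1 peaks. The E-box CAGGTG, searched on either strand in the central 300 bp of each peak, was in 0 of 5, 2 of 30 and 3 of 19 Hox peaks, against 25.8%, 26.8% and 23.8% of all lamin B1 peaks.

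**Figure D3:**
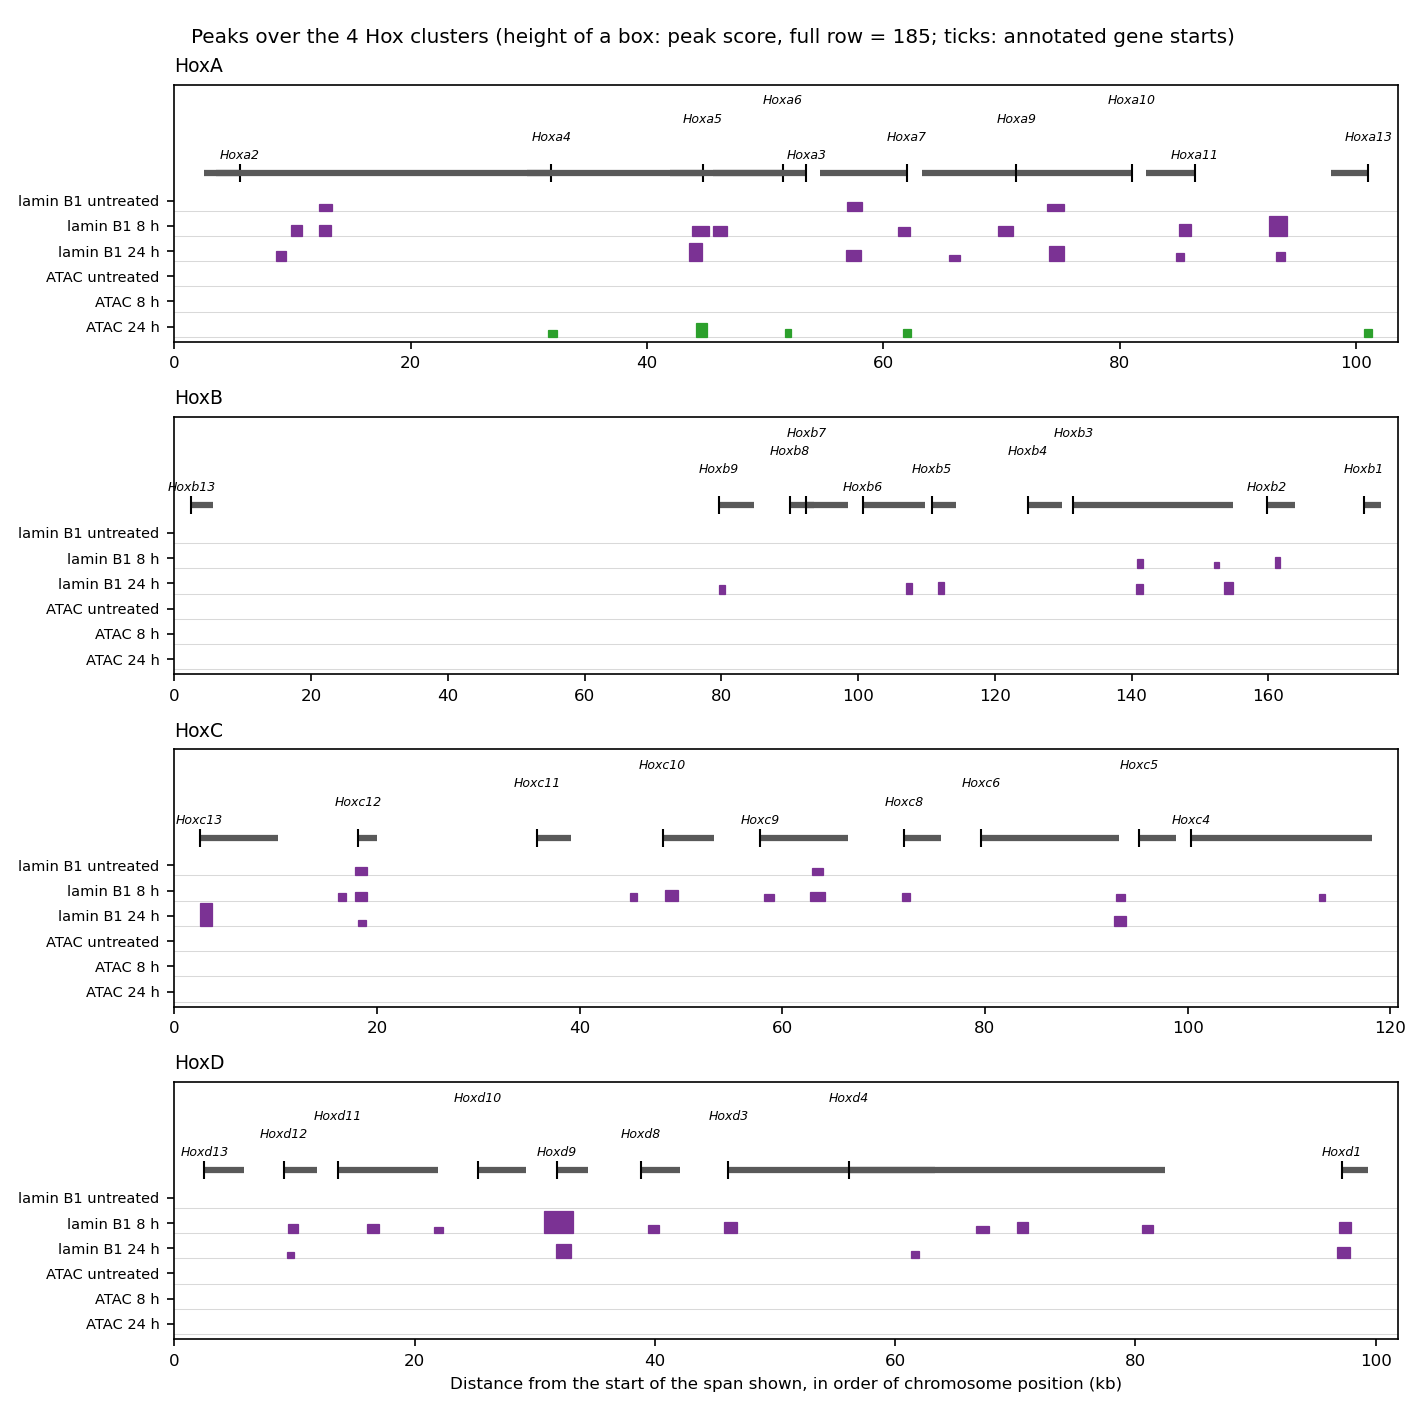
Lamin B1 and ATAC peaks at each time over the 4 Hox clusters, by distance in kb along each span, with the height of a box showing the peak score (a full row is 185) and ticks marking annotated Hox gene starts. Lamin B1 boxes are spread over all 4 clusters and are most numerous at 8 h (30 peaks), while ATAC boxes are in HoxA at 24 h alone (5 peaks).

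By gene, counting a peak from 2500 bp upstream of the start to the 3′ end, 5 of 38 Hox genes (13.2%) had a lamin B1 peak before treatment, 21 (55.3%) after 8 h and 19 (50%) after 24 h. Among all 21138 genes matched to the annotation the shares were 19.9%, 38.9% and 29.5%. Most genes with such peaks were expressed and most Hox genes were not, so the genes under 1 FPKM at that time were also counted, of which 6.29%, 21.6% and 14.7% had a peak. Among the Hox genes, 4, 11 and 10 of the 18 with a CpG-rich promoter (22.2%, 61.1% and 55.6%) and 1, 10 and 9 of the other 20 (5.00%, 50% and 45.0%) had one. Of all genes under 1 FPKM with a CpG-rich promoter, 17.0%, 62.3% and 48.3% did. The Hox share therefore lay above that of weakly expressed genes as a whole, and the share of CpG-rich Hox genes lay near that of weakly expressed CpG-rich genes, under it at 8 h and over it at 0 and 24 h. Within 500 bp of the start, 1, 12 and 7 Hox genes (2.63%, 31.6% and 18.4%) had a peak, against 15.5%, 30.5% and 23.9% of all genes and 13.8%, 53.6% and 42.6% of the weakly expressed CpG-rich ones. In that narrow window 9 of 18 Hox genes with a CpG-rich promoter had a peak (50%) against 3 of 20 (15.0%) without a CpG-rich promoter at 8 h and 6 of 18 (33.3%) against 1 of 20 (5.00%) at 24 h. When each lamin B1 list was shortened to the length of the untreated list by score, 5, 7 and 13 Hox genes had a peak, against 19.9%, 21.2% and 21.2% of all genes. The order of 8 and 24 h was thus turned around by the length of the lists. With equal lengths the Hox share was under that of all genes before treatment and at 8 h, and above it at 24 h.

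In 11 Hox genes no lamin B1 peak was listed at any time (Hoxa2, Hoxa4, Hoxa13, Hoxb1, Hoxb4, Hoxb7, Hoxb8, Hoxb13, Hoxc11, Hoxd10 and Hoxd13). A peak was listed at 8 h alone in 7 (Hoxa6, Hoxb2, Hoxc4, Hoxc8, Hoxc10, Hoxd8 and Hoxd11), at 24 h alone in 5 (Hoxb5, Hoxb6, Hoxb9, Hoxc13 and Hoxd4) and at 8 and 24 h in 10 (Hoxa5, Hoxa9, Hoxa11, Hoxb3, Hoxc5, Hoxc6, Hoxd1, Hoxd3, Hoxd9 and Hoxd12). Hoxa10 was marked before treatment and at 24 h, Hoxc9 before treatment and at 8 h, and Hoxa3, Hoxa7 and Hoxc12 at every time. Of the tested members, Hoxa7 had its peak over the start of a shorter annotated transcript in untreated cells (score 67.6) and at 24 h (88.0) and over the 5′ end of the gene at 8 h (76.3). The Hoxa10 peaks, in untreated cells (score 55.7) and at 24 h (123), likewise covered the start of a shorter annotated transcript and not the 5′ end of the gene. Of the 5 HoxB genes higher at 24 h in infected cells with no floor, Hoxb3 and Hoxb9 had a lamin B1 peak at 24 h in parental cells and Hoxb4, Hoxb7 and Hoxb8 had none. Because Hoxa3, Hoxd3 and Hoxb7 overlap their neighbours in the annotation, 1 peak can count for several genes.

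**Figure D4:**
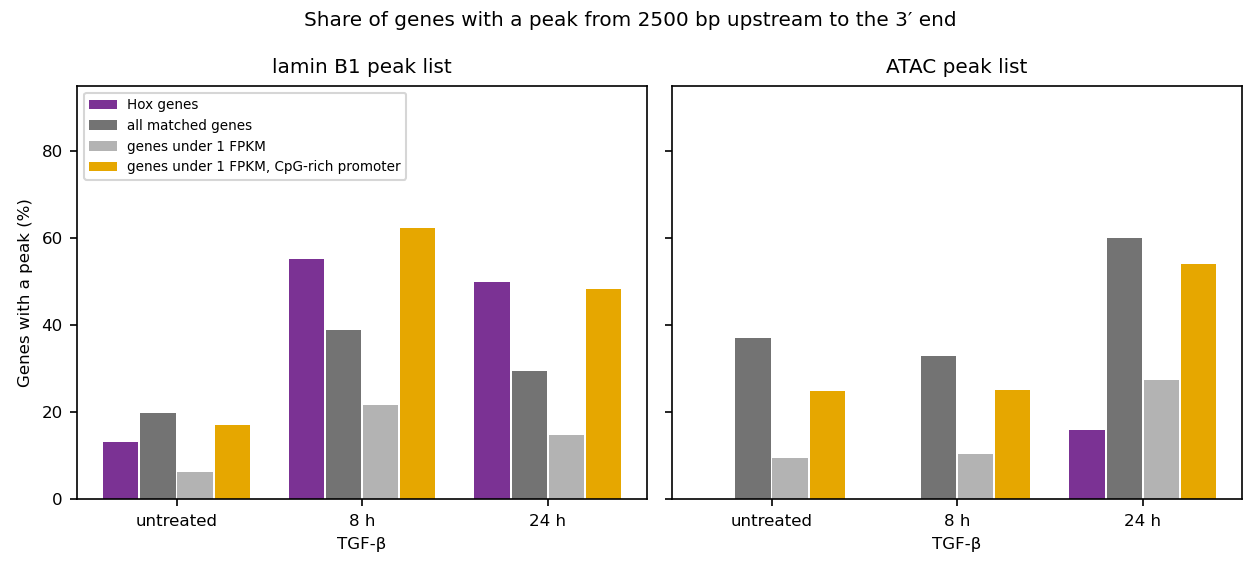
Percent of genes with a lamin B1 peak (left) or an ATAC peak (right) from 2500 bp upstream of the start to the 3′ end at 0, 8 and 24 h, as bars for the 38 Hox genes, all matched genes, genes under 1 FPKM, and genes under 1 FPKM with a CpG-rich promoter. For lamin B1 the Hox bars (13.2%, 55.3% and 50%) lie above the bars of genes under 1 FPKM, and for ATAC (0, 0 and 15.8%) they lie under all other bars at every time.

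Open chromatin was rarely called over these genes. ATAC peaks in the same spans numbered 0, 0 and 5 at 0, 8 and 24 h, all in HoxA, which is 0, 0 and 9.90 per Mb against 3.69, 3.90 and 12.7 per Mb over the genome. The peaks at 24 h lay on the starts of Hoxa4 (score 57.7), Hoxa5 (109), Hoxa7 (59.5) and Hoxa13 (63.7) and just upstream of Hoxa6 (62.4). Hoxa10, whose expression rose in infected cells, had none in these parental lists. In all, 0, 0 and 6 (15.8%) Hox genes had an ATAC peak, the sixth being Hoxa3 through its long annotated unit, against 37.0%, 32.9% and 60.0% of all genes, 9.45%, 10.3% and 27.4% of genes under 1 FPKM, and 24.8%, 25.0% and 54.1% of those with CpG-rich promoters. With each ATAC list cut to the length of the untreated list, 0, 0 and 0 Hox genes had a peak, so none of the 24 h Hox peaks ranked among the 9782 highest of their list. A lamin B1 and an ATAC peak of the same time overlapped at 1 site, the 5′ part of Hoxa5 at 24 h. There, Hoxa5 was read at 0.886 and 0.725 FPKM in parental cells, its highest values in either table.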

How the data were processed

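RNA-seq, lamin B1 ChIP-seq and ATAC-seq data of NMuMG cells were used as deposited. The authors gave expression as FPKM per gene, in a parental table of 6 libraries and an shRNA table of 12, and the submitters' processing notes name Bowtie, TopHat, Cufflinks and mm9 without roles or versions. The annotation behind the FPKM values is not given in the sources used here. The peak lists hold the authors' MACS-style peaks with a score per peak, deposited for 1 library per time. The lamin B1 libraries mixed parallel immunoprecipitations, and whether IgG entered the calls is not given in the sources used here. Parental columns have no sample names and were read in the order of times that the table's own name states, which gives each column's group but not its library.

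Here, limma 3.58.1 (R 4.3.3) was fitted to log2(FPKM + 1) for genes that reached 1 FPKM in 2 or more libraries of a table (11309 parental, 11450 shRNA), with a trended prior, all libraries of a table in 1 fit and Benjamini-Hochberg adjustment over all genes (called: adjusted p under 0.05). The fit was tested on simulated data. Peaks were joined to GENCODE M1 genes (mm9) by symbol with Python 3.11.15 and pysam 0.24.0 (the 38 Hox genes and 21138 of 23295 parental symbols matched), requiring 1 bp of overlap. Alternatives were other pseudocounts, filters, normalization, windows and list lengths, and leaving out each library. The rule matched 39 Hox symbols; results for some genes and sequences, 1 Hox gene among them, are not reported here. The text names the other 38 Hox genes, with values in all libraries for those tested, and from each pathway list at most the 2 largest rises and falls per contrast. The Hox genes and the lists were chosen with earlier results of these data known. Hi-C was not analysed here.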

Additional observations from a re-analysis of the deposited data

Results flagged for a closer look

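The following differences were picked out because both libraries of a group moved one way in parental cells and the opposite way in infected cells. The difference itself was not tested, since the parental and shRNA tables were normalized separately. On the log2(FPKM + 0.1) scale, Hoxa2 at 24 h was 0.441 higher than untreated in parental cells and changed by −0.42 in control cells. Hoxa6 at 8 h was 0.944 higher in parental cells, where 1 untreated library was listed at 0, and changed by −0.365 in control and −1.34 in KD cells. Hoxa6 in parental cells rested on 2 fragments in untreated and 6 in 8 h libraries, at the smallest whole numbers that fit.

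Rarg, a retinoic acid receptor gene, responded to TGF-β differently in KD and control cells by the test of the difference, by 0.336 at 8 h (adjusted p = 0.0363) and 0.432 at 24 h (adjusted p = 0.0150) on the log2(FPKM + 1) scale. Untreated KD cells started lower than control cells by −0.30 (adjusted p = 0.00396).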

How the results depend on the processing

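With 2 libraries per group, FPKM without counts and 1 library per peak list, small Hox differences could not be resolved. Against 1 Hox gene called at 24 h in parental cells, 4 were called with no filter, 3 with a floor of 0.1 FPKM and a pseudocount of 0.1 set together (added after seeing the data), and 0 to 1 when a library was left out. At 8 h in parental cells no filter gave 1 (Hoxb6) in place of 0. In control cells, 2 at 8 h became 4 with both set to 0.1, 1 with quantile normalization and 1 to 2 when a library was left out, and 2 at 24 h became 9 with no filter, 7 with both set to 0.1 and 1 to 2 when a library was left out. In KD cells, with no filter and with both set to 0.1, 2 at 8 h became 7 and 6 and 2 at 24 h became 9 and 9, the latter 1 with quantile normalization and 1 to 2 when a library was left out. Between KD and control cells, 1 at 8 h became 0 with a pseudocount of 0.1, with both set to 0.1 and with quantile normalization (0 to 1 when a library was left out), and 0 at 24 h became 2 with no filter (Hoxa4 and Hoxc8) and 1 with both set to 0.1. No filter tests more genes, and the cause of the other changes was not tested.

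Shared replicate numbers in the shRNA table showed no consistent pairing of the samples. Over 15 pairs of groups the correlation of deviations ran from −0.135 to 0.368, with a median of 0.020 and 2 over 0.1. Whether some groups shared a batch was not tested. Fitted with the numbers as a replicate block, the counts stood at 2 and 2 for control cells at 8 and 24 h, at 2 and 2 in KD cells, and at 0, 1 and 0 between KD and control cells. No paired analysis was possible for the parental libraries because their columns carry no numbers, or for peaks, which have 1 library per time.

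Lamin B1 counts of 5, 21 and 19 Hox genes became 0, 10 and 10 with peaks at or above their list's median score, 5, 7 and 13 with lists of equal length, 1, 12 and 7 within 500 bp of the start, and 1, 16 and 10 within 2500 bp. The ATAC count of 6 at 24 h became 0 with the higher-scoring peaks and 0 with equal lengths. Lamin B1 peaks in the clusters, 5, 30 and 19, became 0, 13 and 10 and 5, 9 and 14, and the 5 ATAC peaks at 24 h became 0 and 0, under the same choices.

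Of 360 fold changes with a library left out 328 kept direction and call, and of 192 under other settings 182 did. The changes of direction were of small values that were not called. With quantile normalization, Hoxa7 at 8 h in parental cells became 0.020 and Lmnb1 at 8 h in control cells 0.102. With a library left out, at 8 h in parental cells Hoxa7 ran from −0.205 to 0.112 and Hoxa3 from −0.015 to 0.215, and Lmnb1 at 8 h in control cells from −0.165 to 0.145. Hoxa10 between KD and control cells ran from −0.128 to 0.0096 untreated and from −0.091 to 0.062 at 24 h, and the difference between the 24 h responses from −0.080 to 0.087 for Hoxa7, from −0.032 to 0.121 for Hoxa10 and from −0.103 to 0.564 for Lmnb1.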
